A study of Mus musculus with 6 samples.

Results

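The genes described here are 45 components and target genes of the Wnt signalling pathway, read in blood stem cells of mice given YH250 or DMSO. They were chosen by symbol, from a list of ligands, receptors, Dishevelled proteins, the destruction complex, TCF/LEF factors and target genes, and all 45 were found by Ensembl ID among the 41128 genes of the deposited table. One group of mice was injected subcutaneously with YH250, labelled a p300/catenin antagonist, at a dose of 2 mg per kg. The other was given DMSO. All were C57BL mice whose marrow was taken after 16 h. Each group has 3 libraries, which carry the replicate numbers 1 to 3. The marrow cells were sorted as Lin-, Sca1+, c-Kit+, CD41-, CD48- and CD150+. Age, sex and the number of animals behind a library are not given in the labels, so p-values measure only the spread between these libraries.

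Wnt proteins bind Frizzled receptors together with the coreceptors LRP5 or LRP6, and Dishevelled proteins pass the signal on. Without a Wnt signal, a destruction complex of AXIN, APC and the kinases GSK3 and CK1 marks beta-catenin for degradation. When the complex is held off, beta-catenin enters the nucleus, joins TCF/LEF proteins on DNA and recruits the coactivators CBP or p300. Target genes include negative regulators of the pathway itself, such as Axin2, Rnf43 and Znrf3. In blood, TCF1 (the product of Tcf7) and LEF1 are best known for their part in lymphocyte development.

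A level is given in RPM, that is, reads per common total of a library after removal of an offset of 1. The genes summed to 77.9%, 84.9% and 93.6% of that total in YH250 1, 2 and 3. In DMSO 1, 2 and 3 they summed to 70.0%, 75.6% and 95.9%. One read was worth 0.0321 to 0.0417 RPM in the YH250 libraries and 0.0368 to 0.0455 RPM in the DMSO libraries. A gene at 1 RPM thus rested on about 24.0 to 31.2 reads with YH250 and 21.96 to 27.2 reads with DMSO. Markers of the sorted population varied by library number. The 10 stem cell markers summed to 625 to 959 RPM with YH250 and to 722 to 1162 RPM with DMSO, lowest at number 3 in both. The required surface marker gene Slamf1 stood at 31.5, 3.92 and 1.54 RPM in YH250 1, 2 and 3, and at 35.5, 0.515 and 4.69 RPM in DMSO 1, 2 and 3. Ly6a, of the required Sca1, ran the other way, at 122, 208 and 319 RPM with YH250 and at 80.9, 155 and 241 RPM with DMSO. Kit, of the required c-Kit, was at 218, 160 and 130 RPM with YH250 and at 318, 265 and 213 RPM with DMSO. It was lower with YH250 at each number, and the groups overlapped. The log2 difference was -0.66 ± 0.26 (SE) and did not pass (limma, unadjusted p = 0.0342, adjusted p = 0.999). With the library number as a replicate block the SE was 0.15. The difference did not pass there either (limma, unadjusted p = 0.00146, adjusted p = 0.66). Of the markers the sort excludes, Cd48 was at 13.1, 66.9 and 252 RPM with YH250 and at 10.2, 31.5 and 258 RPM with DMSO. Itga2b, of CD41, was at 37.4, 26.3 and 7.13 RPM with YH250 and at 43.7, 15.3 and 5.65 RPM with DMSO, lowest at number 3 in both. YH250 2 stood apart by its stromal genes, with 10 stromal markers summing to 300.1 RPM there, against 18.3 to 31.9 RPM in the other YH250 libraries and 16.5 to 66.6 RPM in the DMSO libraries. In bulk RNA of this kind, fewer cells of a type and less RNA per cell cannot be told apart.

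Of the 45 genes, 27 averaged 1 RPM or more over the 6 libraries. Among them were 8 of the 10 receptor genes, all 3 Dishevelled genes, all 5 genes of the destruction complex and 7 of the 8 TCF/LEF factors and coactivators. By contrast, 4 of the 17 feedback inhibitors and target genes reached that level, and neither of the 2 ligand genes did. The limit of 1 RPM fell in a gap. The lowest means above it were those of Ephb2 at 3.23 RPM and Tcf7l1 at 3.26 RPM, and the highest below it were those of Lgr5 at 0.65 RPM and Axin2 at 0.631 RPM. Of the 27 genes, 23 were at 1 RPM or more in every library. The exceptions were Fzd3, Fzd4, Tcf7 and Tcf7l1.

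**Figure D1:**
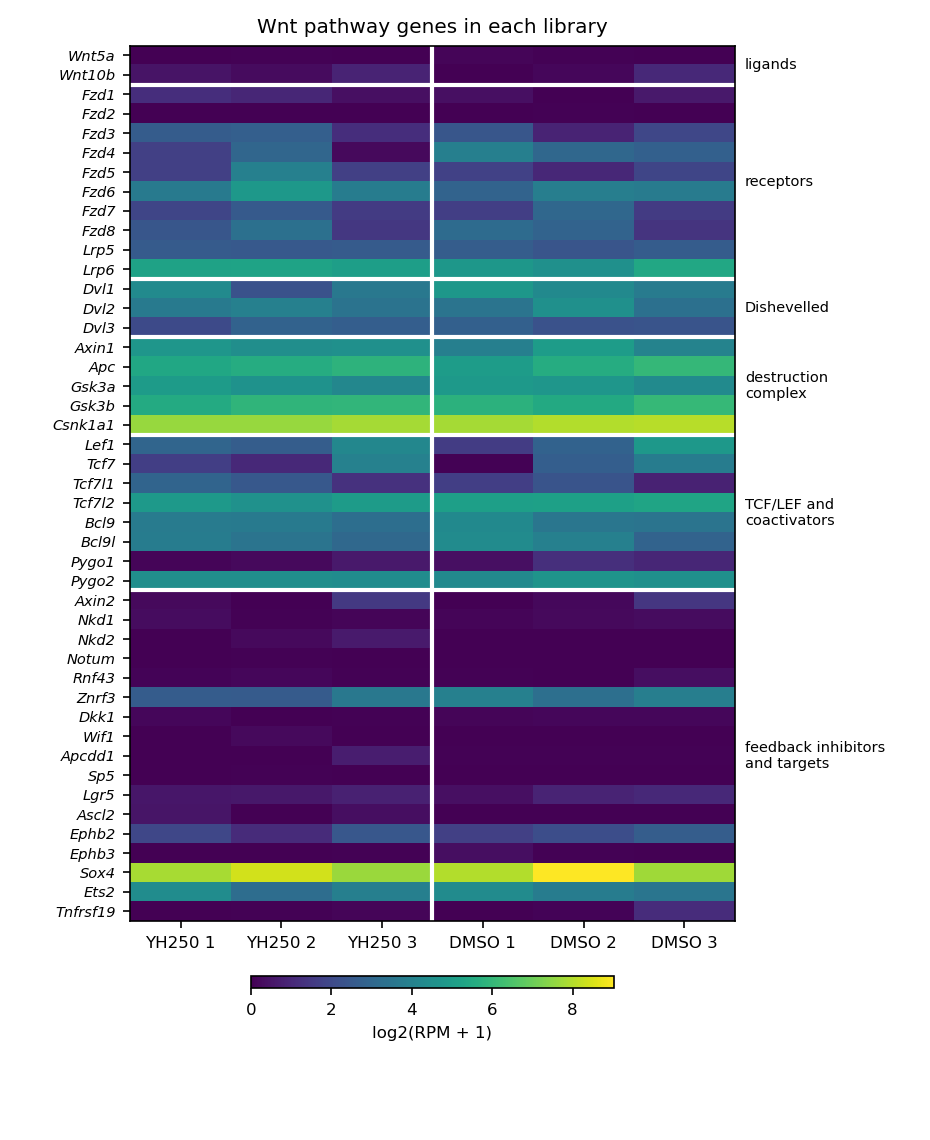
Level of each of the 45 Wnt pathway genes, as the colour of log2(RPM + 1), in the 3 YH250 and 3 DMSO libraries (columns), with genes in rows grouped by role. The destruction complex and Sox4 are bright in all 6 libraries, and 13 of the 17 feedback inhibitors and targets are dark in nearly all.

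Both ligand genes averaged below 1 RPM, and Wnt5a was close to the limit of detection. Wnt5a, which encodes a ligand known mostly for signalling without beta-catenin, had 0, 0.04 and 0 RPM in YH250 1, 2 and 3, and 0.0992, 0.0369 and 0 RPM in DMSO 1, 2 and 3. Wnt10b, which encodes a ligand of the beta-catenin branch, had 0.385, 0.2 and 0.876 RPM with YH250 and 0, 0.11 and 1.05 RPM with DMSO. Its higher values were those of the libraries numbered 3, in both treatments.

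Among the 8 Frizzled genes of the list, Fzd6 had the highest level per length in 5 of the 6 libraries and Fzd4 in DMSO 1. Levels per length are RPM per kb of GENCODE exons. Fzd6 had 2.502, 5.69 and 2.68 RPM per kb in YH250 1, 2 and 3, and 1.32, 2.79 and 2.58 RPM per kb in DMSO 1, 2 and 3. Its product is best known as a receptor of planar cell polarity. The 8 Frizzled genes summed to 5.19, 12.1 and 3.93 RPM per kb with YH250 and to 5.92, 6.68 and 4.89 RPM per kb with DMSO, so YH250 2 was high and the groups overlapped. Fzd9, which is not among the 45 genes, had 2.36, 5.47 and 0.709 RPM per kb with YH250 and 3.77, 1.38 and 0.635 RPM per kb with DMSO. It was thus above every listed Frizzled gene in DMSO 1 and close below Fzd6 in YH250 1 and 2. Fzd1 averaged 0.834 ± 0.491 RPM with YH250 and 0.284 ± 0.274 RPM with DMSO (SD, n = 3 each), below the limit. Fzd2 was listed at 0 in all libraries but DMSO 2.

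Fzd4, whose product binds Norrin as well as Wnt proteins (GRCm38, chromosome 7, 89404355 to 89413134), showed the largest difference between treatments of the 27 genes. It had 2.31, 6.96 and 0.167 RPM in YH250 1, 2 and 3, and 13.7, 7.10 and 5.83 RPM in DMSO 1, 2 and 3. The YH250 libraries numbered 1 and 3 were below every DMSO library, whereas YH250 2 was above DMSO 3, so the groups overlapped. The log2 difference was -1.58 ± 0.71 (SE; 95% interval -3.18 to 0.02) and did not pass (limma, adjusted p = 0.999). As a share of the summed RPM per kb of the 8 listed Frizzled genes, Fzd4 made up 6.62%, 8.58% and 0.631% with YH250, and 34.5%, 15.8% and 17.7% with DMSO. The share of YH250 2 lay below those of DMSO because its Frizzled sum, with high Fzd5 and Fzd6, was the largest. Its Fzd4 level of 1.035 RPM per kb was above the 0.867 RPM per kb of DMSO 3.

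Fzd5 and Fzd6 were highest in YH250 2. Fzd5 had 2.24, 14.3 and 2.29 RPM in YH250 1, 2 and 3, against 2.34, 1.03 and 2.69 RPM in DMSO 1, 2 and 3. Fzd6 (chromosome 15, 39006034 to 39038188) had 12.1, 27.4 and 12.9 RPM with YH250 and 6.37, 13.5 and 12.4 RPM with DMSO. Their log2 differences were 0.90 ± 0.67 and 0.62 ± 0.44 (SE), neither passing. Without YH250 2 they were 0.16 and 0.26. The same library held the highest levels of the stromal genes Lepr (58.2 RPM) and Cxcl12 (202 RPM) and of the endothelial gene Plvap (44.97 RPM). The other YH250 libraries had up to 1.73, 19.1 and 10.7 RPM of these genes, and the DMSO libraries up to 7.99, 36.3 and 5.07 RPM. Plvap was chosen after its values were seen, and 3 of the 8 endothelial markers, against 7 of the 10 stromal ones, were highest in that library. Cdh5, which defines endothelial cells, had 5.16 RPM there, against 1.04 and 5.67 RPM in the other YH250 libraries and 1.84 to 5.69 RPM in the DMSO libraries. Of the 10 stromal markers, 7 averaged 1 RPM or more. Pdgfra was at 7.32 RPM in YH250 2, at 0 in YH250 1, YH250 3 and DMSO 3, and at up to 1.38 RPM in DMSO 1 and 2. The collagen gene Col1a2 was also highest in YH250 2, at 7.48 RPM. The collagen genes Col1a1 and Col3a1 were at no more than 0.799 RPM in any library. The part of such cells in the Frizzled values was not tested.

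The other Frizzled genes were low, and their groups overlapped. Fzd3 averaged 3.99 ± 2.39 RPM with YH250 and 2.67 ± 1.73 RPM with DMSO (SD, n = 3 each). Fzd7 averaged 3.20 ± 1.52 RPM with YH250 and 3.75 ± 2.87 RPM with DMSO. Fzd8 had 4.33, 9.07 and 1.75 RPM in YH250 1, 2 and 3, and 7.90, 6.25 and 1.59 RPM in DMSO 1, 2 and 3, with the lowest value of each treatment in the library numbered 3.

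Lrp6 was the main coreceptor gene. It made up 83.4% ± 1.49 of the summed Lrp5 and Lrp6 RPM per kb with YH250 and 80.8% ± 4.03 with DMSO (SD, n = 3 each). Lrp6 itself had 35.5, 37.1 and 32.1 RPM in YH250 1, 2 and 3, and 26.2, 22.2 and 42.03 RPM in DMSO 1, 2 and 3, and the groups overlapped (log2 difference 0.26 ± 0.29, SE). Lrp5 lay between 4.19 and 5.29 RPM in all 6 libraries, at 4.91 ± 0.197 RPM with YH250 and 4.87 ± 0.594 RPM with DMSO.

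**Figure D2:**
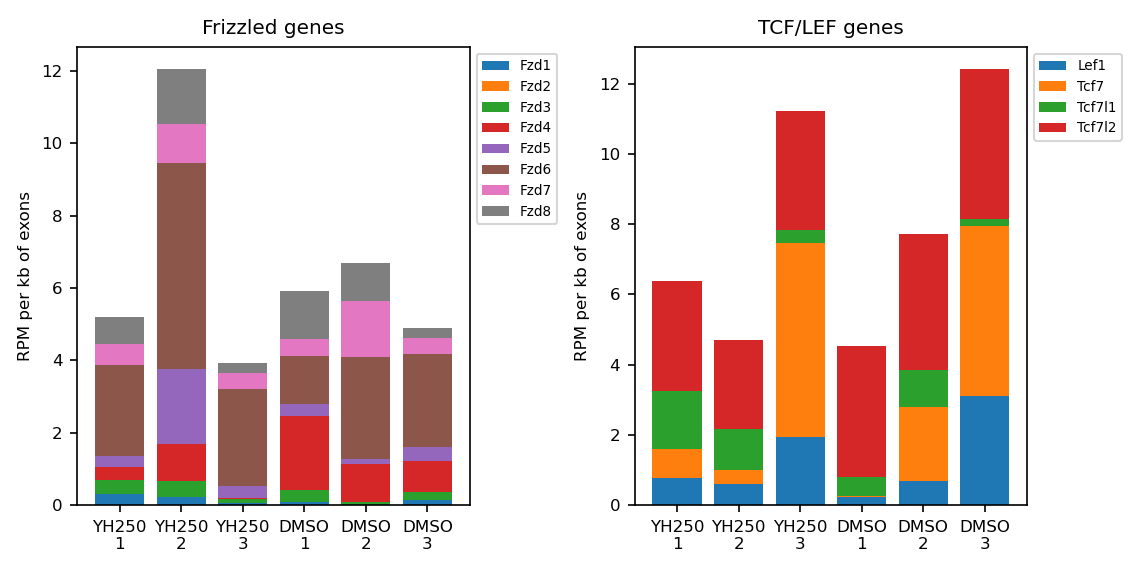
Summed level per length (RPM per kb of exons) of the 8 Frizzled genes (left) and the 4 TCF/LEF genes (right) in each library, stacked by gene, YH250 libraries left of DMSO libraries. Fzd6 is the largest segment of the listed Frizzled genes in all libraries but DMSO 1, and the TCF/LEF bars are tallest in YH250 3 (11.2) and DMSO 3 (12.4), where Tcf7 and Lef1 take most of the height.

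All 3 Dishevelled genes were detected in every library, at means of 3.05 RPM per kb for Dvl1, 2.06 for Dvl2 and 0.739 for Dvl3. Dvl1 had 18.8, 3.88 and 11.2 RPM in YH250 1, 2 and 3, and 26.4, 18.5 and 12.7 RPM in DMSO 1, 2 and 3. It was lower with YH250 at each number, most of all at number 2, and the groups overlapped. The log2 difference was -0.88 ± 0.53 (SE), and without YH250 2 it was -0.32. Per length, Dvl1 held 42.7% ± 21.2 of the Dishevelled sum with YH250 and 56.7% ± 10.4 with DMSO (SD, n = 3 each). Dvl2 averaged 12.2 ± 2.30 RPM with YH250 and 13.8 ± 7.28 RPM with DMSO, and Dvl3 averaged 4.90 ± 1.59 RPM with YH250 and 4.57 ± 1.07 RPM with DMSO.

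All 5 genes of the destruction complex were at 13.9 RPM or more in every library. Their summed level was 42.9, 41.3 and 42.9 RPM per kb in YH250 1, 2 and 3, and 41.9, 48.5 and 46.7 RPM per kb in DMSO 1, 2 and 3. Csnk1a1, which encodes the kinase CK1 alpha that primes beta-catenin for GSK3 (chromosome 18, 61555274 to 61590061), held the largest share, 46.5% ± 3.35 with YH250 and 51.7% ± 2.64 with DMSO (SD, n = 3 each). It had 196, 199 and 226 RPM with YH250 and 221, 255 and 268 RPM with DMSO. It was lower with YH250 at each number, by 0.17, 0.36 and 0.25 on the log2 scale at numbers 1, 2 and 3, but YH250 3 was above DMSO 1. The log2 difference was -0.26 ± 0.20 (SE; 95% interval -0.72 to 0.20; limma, adjusted p = 0.999).

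Both GSK3 kinase genes were at like levels in the treatments. Gsk3a averaged 23.4 ± 6.24 RPM with YH250 and 24.3 ± 4.68 RPM with DMSO. Gsk3b averaged 55.1 ± 8.52 RPM with YH250 and 54.5 ± 10.5 RPM with DMSO, a log2 difference of 0.02 with a 95% interval of -0.54 to 0.59. The scaffold gene Axin1 had 26.1, 20.8 and 22.2 RPM in YH250 1, 2 and 3, and 13.9, 30.6 and 15.3 RPM in DMSO 1, 2 and 3, so the YH250 values lay inside the range of the DMSO values. Apc, whose product binds beta-catenin and AXIN, had 40.4, 47.6 and 55.6 RPM with YH250 and 30.8, 47.4 and 64.2 RPM with DMSO. It was lowest at number 1 and highest at number 3 in both treatments, a difference that did not pass (log2 difference of number 3 and number 1, 0.74 ± 0.25, SE; limma, adjusted p = 0.102).

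Among the TCF/LEF genes, Tcf7l2 was present at a similar level in every library, while Lef1 and Tcf7 differed widely between library numbers. Tcf7l2, whose product is also called TCF4 and is not that of the gene Tcf4 (chromosome 19, 55741820 to 55933654), had 27.7, 22.4 and 29.8 RPM in YH250 1, 2 and 3, and 32.8, 34.2 and 37.5 RPM in DMSO 1, 2 and 3. Every YH250 library was below every DMSO library. The log2 difference was -0.38 ± 0.25 (SE; 95% interval -0.94 to 0.18) and did not pass (limma, adjusted p = 0.999). It was the 1 gene of the 27 whose groups did not overlap with YH250 lower, and none did with YH250 higher. Over all 13597 tested genes, 3.68% were separated with YH250 lower and 3.79% with YH250 higher.

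Lef1 and Tcf7 were highest in the libraries numbered 3. Lef1 (chromosome 3, 131110471 to 131224356) had 6.73, 5.27 and 17.0 RPM in YH250 1, 2 and 3, and 2.04, 6.07 and 27.3 RPM in DMSO 1, 2 and 3. Tcf7 (chromosome 11, 52252371 to 52283014) had 2.18, 1.04 and 14.6 RPM with YH250 and 0.0384, 5.52 and 12.7 RPM with DMSO. Both treatments thus gave the highest value at number 3, and YH250 and DMSO overlapped for both genes. Their log2 differences between treatments were 0.17 ± 0.79 and 0.04 ± 1.04 (SE).

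Between numbers, with treatment as a second term and 2 libraries per number, Lef1 was higher in number 3 than in number 1 by 2.22 ± 0.55 on the log2 scale (SE; limma, adjusted p = 0.0365). Tcf7 was higher by 3.01 ± 0.72 (limma, adjusted p = 0.0337). They were the 2 genes of the 27 called in this contrast, in which 8.56% of all tested genes were called. Both calls were lost without DMSO 1 (log2 differences 1.34 and 1.83) and without DMSO 3 (1.60 and 3.11), after the genes of each library were rescaled to one total (1.92 and 2.79), without the trend and robust options, and in the fit of every gene above 0. That of Tcf7 was also lost without YH250 3 (2.90) and with a pseudocount of 0.25 (4.05). Between numbers 3 and 2, the single call was Sox4, against 6.31% of all tested genes. Between numbers 2 and 1, none of the 27 was called (6 libraries), against 0.199% of all tested genes.

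The summed markers of lymphoid cells, of mast cells, basophils and eosinophils, and of monocytes, macrophages and neutrophils were also highest in the libraries numbered 3. The erythroid and megakaryocyte list was highest at number 3 with DMSO alone. It summed to 207, 115 and 144 RPM in YH250 1, 2 and 3, and to 148, 209 and 221 RPM in DMSO 1, 2 and 3. The T and NK cell list summed to 164, 245 and 546 RPM in YH250 1, 2 and 3, and to 80.8, 127 and 565 RPM in DMSO 1, 2 and 3, with all 13 markers averaging 1 RPM or more. Much of each sum was Nkg7, at 75.5, 105 and 283 RPM with YH250 and 39.8, 72.0 and 340 RPM with DMSO. Of the 13 markers, 2 (Cd6 and Il2rb) were highest in YH250 2. Trac, a T cell receptor gene, was at 0 in DMSO 2, and the NK receptor gene Ncr1 at 0 in YH250 1 and YH250 2. The B cell list without the immunoglobulin gene Ighm summed to 165, 292 and 804 RPM with YH250 and to 60.1, 273 and 642.5 RPM with DMSO, and 7 of its 8 markers averaged 1 RPM or more, whereas Pax5, which defines committed B cells, was at no more than 0.27 RPM in any library. The lymphoid-primed progenitor genes Dntt and Il7r were at 614 and 129.6 RPM in YH250 3 and at 633 and 122 RPM in DMSO 3. In the other libraries they reached up to 153 and 9.46 RPM with YH250 and up to 38.3 and 4.20 RPM with DMSO. Their list of 6 genes summed to 237, 996 and 1644 RPM in YH250 1, 2 and 3. In DMSO 1, 2 and 3 it summed to 205, 868 and 1693 RPM. Cd34 of that list was higher at number 2 (501 RPM with YH250, 505 with DMSO) than at number 3 (416 and 402 RPM). Flt3 was close at numbers 2 (224 and 240 RPM) and 3 (244 and 271 RPM). Ccr9 and Satb1 were highest at number 3 in both treatments. The mast cell, basophil and eosinophil list summed to 8.40, 20.9 and 193 RPM in YH250 1, 2 and 3, and to 0.998, 0.589 and 104 RPM in DMSO 1, 2 and 3. The monocyte, macrophage and neutrophil list summed to 255, 333 and 434 RPM with YH250 and to 151, 235 and 480.1 RPM with DMSO. Of its genes, Mpo, Elane, Ctsg, Cd68 and Csf1r were highest at number 3 in both treatments. Mpo had 17.1, 48.8 and 223 RPM with YH250 and 0.81, 13.7 and 175 RPM with DMSO. Lyz2 was lowest at number 3, at 189, 236 and 101 RPM with YH250 and 128, 176 and 124 RPM with DMSO. S100a8 was lowest in YH250 3 and highest in DMSO 3, and Adgre1 was highest in YH250 2. Lef1 and Tcf7 were lower in YH250 2 than in YH250 1, while the T and NK, B, mast cell and monocyte lists were higher there. In DMSO 2, by contrast, Lef1, Tcf7 and these lists were higher than in DMSO 1, apart from the mast cell list. The part of such cells in the Lef1 and Tcf7 values was not tested.

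Tcf7l1, which encodes TCF3, a family member known mostly as a repressor, differed in the opposite direction. It had 6.45, 4.58 and 1.43 RPM in YH250 1, 2 and 3, and 2.20, 4.09 and 0.822 RPM in DMSO 1, 2 and 3, lowest at number 3 in both treatments. The log2 difference of number 3 and number 1 was -1.22 ± 0.52 (SE) and did not pass (limma, adjusted p = 0.191). It was higher with YH250 at each number, by 1.22, 0.13 and 0.41 on the log2 scale. Tcf7l2 made up 49.4%, 54.2% and 30.2% of the TCF/LEF sum per kb in YH250 1, 2 and 3, and 82.2%, 50.4% and 34.4% in DMSO 1, 2 and 3. Tcf7 was the largest of the 4 in YH250 3 (49.3%) and DMSO 3 (38.9%).

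**Figure D3:**
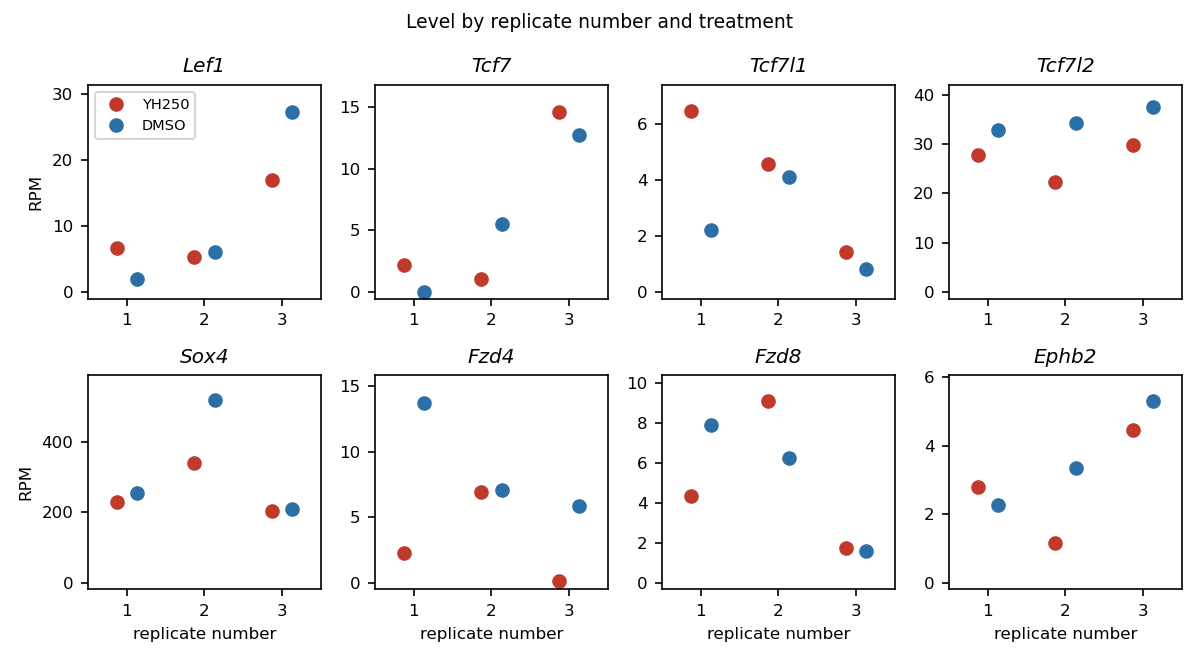
Level in RPM (linear axis) of 8 Wnt pathway genes by library number, with YH250 libraries as red points left of DMSO libraries as blue points. Lef1 and Tcf7 are highest at number 3 in both treatments, Tcf7l1 and Fzd8 are lowest there, and Tcf7l2 is lower with YH250 at each number.

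The coactivator genes of the TCF/LEF complex were detected apart from Pygo1. Pygo2, which encodes a reader of histone H3 that joins BCL9 and beta-catenin, had 21.3, 20.8 and 20.2 RPM in YH250 1, 2 and 3, and 18.4, 24.7 and 22.3 RPM in DMSO 1, 2 and 3. Its paralog Pygo1 averaged 0.261 ± 0.223 RPM with YH250 and 0.853 ± 0.532 RPM with DMSO (SD, n = 3 each). Bcl9 averaged 10.9 ± 2.07 RPM with YH250 and 13.2 ± 4.61 RPM with DMSO, and Bcl9l averaged 10.1 ± 2.77 RPM with YH250 and 13.5 ± 6.68 RPM with DMSO. Bcl9l was lowest at number 3 in both treatments, with 7.25 RPM in YH250 3 and 6.37 RPM in DMSO 3.

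Windows around transcript starts are shown for Lef1 and Tcf7, which were both highest at number 3, and for Axin2 and Sp5, targets commonly used to read the pathway. They run from 250 bases before to 50 bases after a RefSeq transcript start on GRCm38.p6, at chr3:131110047-131110346 on the plus strand for Lef1, chr11:52282965-52283264 on the minus strand for Tcf7, chr11:108920099-108920398 on the plus strand for Axin2, and chr2:70474673-70474972 on the plus strand for Sp5, printed 5′ to 3′ along the gene. Capitals mark the TCF/LEF core word CTTTGAT or its reverse complement ATCAAAG. These words can share their AT where one follows the other, so a window was counted once.
Lef1: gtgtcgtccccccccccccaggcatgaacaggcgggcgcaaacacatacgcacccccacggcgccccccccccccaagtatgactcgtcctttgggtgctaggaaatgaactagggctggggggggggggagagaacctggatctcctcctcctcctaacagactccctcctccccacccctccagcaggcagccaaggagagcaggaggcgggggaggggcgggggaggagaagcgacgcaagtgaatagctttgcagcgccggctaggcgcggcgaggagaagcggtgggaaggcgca
Tcf7: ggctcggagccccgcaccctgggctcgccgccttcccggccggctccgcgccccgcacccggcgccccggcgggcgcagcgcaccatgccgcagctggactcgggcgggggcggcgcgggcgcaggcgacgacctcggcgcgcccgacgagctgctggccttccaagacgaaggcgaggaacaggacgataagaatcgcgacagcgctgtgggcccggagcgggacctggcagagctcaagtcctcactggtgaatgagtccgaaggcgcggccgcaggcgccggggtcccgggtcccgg
Axin2: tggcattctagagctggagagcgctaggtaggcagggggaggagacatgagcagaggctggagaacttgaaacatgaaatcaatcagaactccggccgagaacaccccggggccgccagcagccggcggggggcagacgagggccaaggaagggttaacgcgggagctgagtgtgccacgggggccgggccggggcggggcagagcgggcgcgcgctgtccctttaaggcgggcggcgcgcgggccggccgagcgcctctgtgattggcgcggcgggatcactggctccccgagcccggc
Sp5: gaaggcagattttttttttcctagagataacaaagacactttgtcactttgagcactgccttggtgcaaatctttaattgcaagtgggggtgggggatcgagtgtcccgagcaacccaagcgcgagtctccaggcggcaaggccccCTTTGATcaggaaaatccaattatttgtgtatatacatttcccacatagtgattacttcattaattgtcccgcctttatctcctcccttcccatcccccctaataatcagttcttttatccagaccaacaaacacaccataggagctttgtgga
The word stood in 2 of the 39 windows found for 30 of the 45 genes, those of Sp5 and 1 start of Tnfrsf19. It stood in 3.73% of all 32851 windows. The other windows of Lef1 and Tcf7, at 3 further starts and 1 further start, held no match either. From its first atg, the printed Tcf7 window reads to its end without a stop codon in that frame. It can thus hold coding sequence, and the missing match there does not describe a promoter alone. A match or its absence in these windows is a description of the letters.

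Of the feedback inhibitors and target genes, Sox4, Ets2, Znrf3 and Ephb2 were expressed, and the classical readouts were near 0. Axin2, which encodes a scaffold that is itself a target (chromosome 11, 108920349 to 108950783), had 0.16, 0 and 1.79 RPM in YH250 1, 2 and 3, and 0, 0.147 and 1.68 RPM in DMSO 1, 2 and 3. These values rest on 5, 0 and 43.0 reads with YH250 and on 0, 4.0 and 37.0 reads with DMSO. Nearly all Axin2 reads thus came from the libraries numbered 3, where Lef1 and Tcf7 were highest. In a fit of every gene above 0 in at least 1 library, 27592 genes, its log2 difference was 0.02 ± 0.52 between treatments and 1.35 ± 0.28 between numbers 3 and 1 (SE), and the contrast of numbers did not pass (limma, adjusted p = 0.129).

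In the same fit none of the other low targets was called between treatments or between numbers 3 and 1. Lgr5, an R-spondin receptor of intestinal stem cells, had 0.444, 0.48 and 0.775 RPM in YH250 1, 2 and 3, and 0.289, 0.856 and 1.06 RPM in DMSO 1, 2 and 3, a log2 difference of -0.12 ± 0.30 (SE) between treatments. Tnfrsf19 was at no more than 0.0834 RPM with YH250 and at 0, 0.0736 and 1.23 RPM with DMSO (-0.36 ± 0.30). Rnf43, which encodes a ubiquitin ligase that clears Frizzled receptors, had up to 0.12 RPM with YH250 and up to 0.273 RPM with DMSO. The transcription factor genes Sp5 and Ascl2 reached 0.04 and 0.417 RPM with YH250 and were listed at 0 in all DMSO libraries.

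Secreted and intracellular inhibitors were as low. Dkk1, which blocks LRP6, averaged 0.0525 ± 0.0568 RPM with YH250 and 0.102 ± 0.00802 RPM with DMSO (SD, n = 3 each). Wif1 and Notum, which encode a secreted Wnt-binding protein and an enzyme that inactivates Wnt proteins, were found in YH250 2 alone, at 0.16 and 0.04 RPM. Nkd1 and Nkd2, which bind Dishevelled, stayed at or below 0.584 RPM with YH250 and 0.228 RPM with DMSO. The ephrin receptor gene Ephb3 and the membrane inhibitor gene Apcdd1 stayed at or below 0.667 RPM with YH250 and 0.269 RPM with DMSO.

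All 4 expressed target genes had lower means on the log2 scale with YH250, and none passed. The differences of Ephb2, Sox4 and Ets2 changed sign when a single library was left out, and that of Ets2 was -0.05 ± 0.41 (SE). Of 21 further target genes of the pathway that were tested, 10 had higher and 11 lower means with YH250. Znrf3, the paralog of Rnf43 (chromosome 11, 5276324 to 5444847), had 5.24, 4.98 and 11.2 RPM in YH250 1, 2 and 3, and 14.1, 8.84 and 13.7 RPM in DMSO 1, 2 and 3. It was lower with YH250 at each number, by 1.28, 0.72 and 0.26 on the log2 scale, while YH250 3 lay above DMSO 2. The log2 difference was -0.75 ± 0.43 (SE; 95% interval -1.73 to 0.22; limma, adjusted p = 0.999).

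Sox4, a transcription factor gene active in stem cells and lymphoid progenitors (chromosome 13, 28948919 to 28953713), was the most abundant of the 45 genes per length, at a mean of 61.2 RPM per kb. It had 231, 340 and 204 RPM in YH250 1, 2 and 3, and 254, 521 and 210 RPM in DMSO 1, 2 and 3. It was highest at number 2 in both treatments, and its difference of number 3 and number 2 was -1.02 ± 0.20 (SE) on the log2 scale (limma, adjusted p = 0.021). That call was lost without DMSO 2 (log2 difference -0.76; limma, adjusted p = 0.0797) and without DMSO 3 (-0.85; limma, adjusted p = 0.0692). It was also lost in the fit of every gene above 0 (limma, adjusted p = 0.143) and without the trend and robust options (limma, adjusted p = 0.15), with the same difference. Between treatments the log2 difference was -0.27 ± 0.36 (SE). Ephb2 averaged 2.81 ± 1.65 RPM with YH250 and 3.64 ± 1.54 RPM with DMSO (SD, n = 3 each), and Ets2 averaged 14.1 ± 5.74 RPM with YH250 and 14.3 ± 4.83 RPM with DMSO.

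Of the 27 tested genes, none was called between YH250 and DMSO, and 0 had an unadjusted p under 0.05 (limma). Over all 13597 tested genes, 0% were called and 1.70% had an unadjusted p under 0.05. With the library number as a replicate block, none of the 27 was called and 1, Fzd4, had an unadjusted p under 0.05 (0.0152; limma, adjusted p = 0.66), against 7.44% of all tested genes. Means on the log2 scale were higher with YH250 for 12 of the 27 genes and lower for 15, and for 8 and 19 after rescaling of the libraries to one total. The median log2 difference was -0.06, beside 0.02 over all tested genes, and -0.15 beside -0.07 after that rescaling. The sign was the same at all 3 numbers for 8 of the 27. Fzd6 and Tcf7l1 were higher each time, and Fzd4, Dvl1, Csnk1a1, Tcf7l2, Znrf3 and Sox4 were lower. Over all tested genes, 31.1% kept 1 sign.

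The median standard error of a log2 difference was 0.43 for the 27 genes and 0.39 for all tested genes. With the replicate block it was 0.33 and 0.30. In the fit without the block, the 95% interval lay within 1 log2 unit of 0, that is, within a doubling or halving, for 9 of the 27 genes. It did so for 36.9% of all tested genes. For the other 18 a change of that size in either or both directions lies within the interval. The difference between numbers 3 and 1 exceeded that between treatments in size for 18 of the 27 genes, 66.7%, beside 67.3% of all tested genes.

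**Figure D4:**
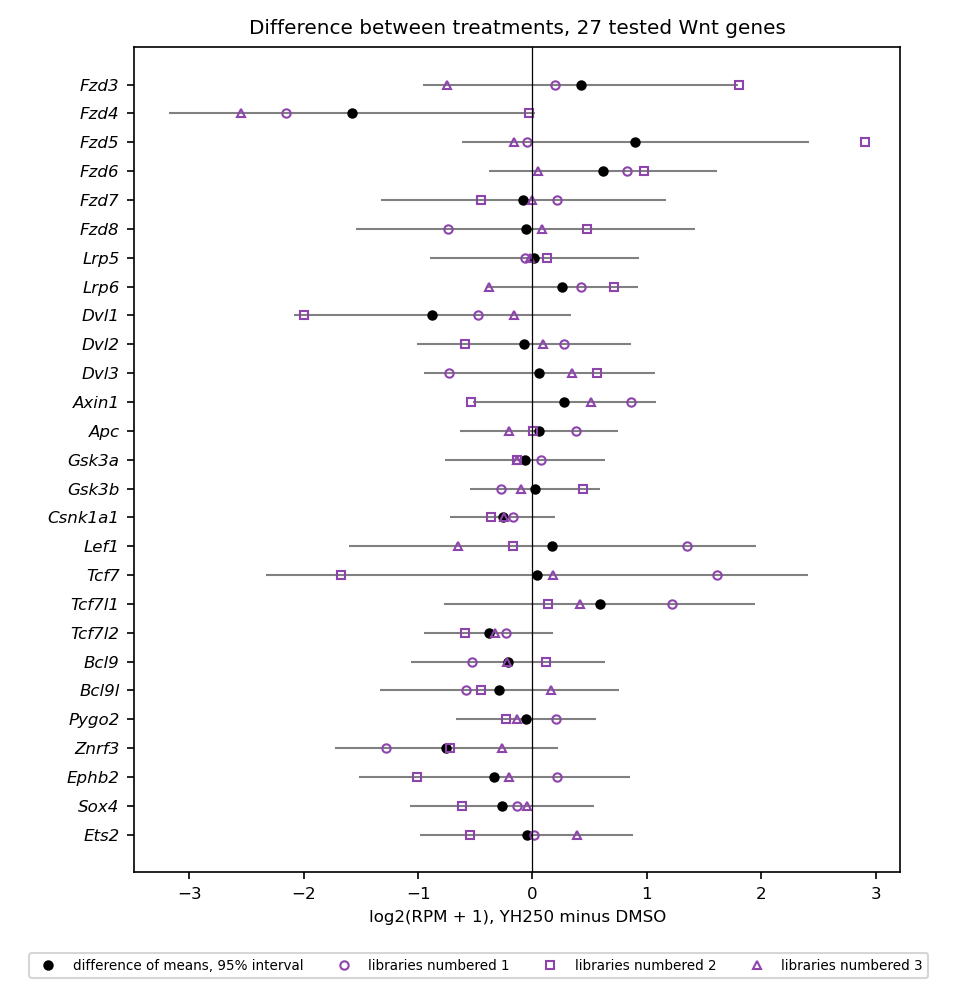
Difference of YH250 minus DMSO in log2(RPM + 1) for the 27 tested Wnt genes, as filled points with 95% limma intervals, and the difference at each library number as open symbols. The intervals are from the fit without the replicate block. All 27 intervals include 0, and the open symbols of Fzd4, Dvl1, Csnk1a1, Tcf7l2, Znrf3 and Sox4 all lie left of 0.

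Other genes of the pathway gave no call either. Of 130 further genes found in the table, 83 were tested, and with YH250 34 had higher and 49 lower means on the log2 scale (28 and 55 after rescaling), with a median log2 difference of -0.09. None was called, and 1 had an unadjusted p under 0.05 (limma). It was Siah1a, a ubiquitin ligase gene with 26.7, 22.1 and 29.9 RPM in YH250 1, 2 and 3, and 43.7, 41.5 and 39.7 RPM in DMSO 1, 2 and 3, a log2 difference of -0.65 ± 0.24 (SE). Over all tested genes, 1.70% had an unadjusted p under 0.05. The groups of Siah1a did not overlap, nor did those of Sgk1 and Tbl1x, each with YH250 lower. Of all tested genes, 3.68% were separated in that direction. With the replicate block 7 of the 83 had an unadjusted p under 0.05, against 7.44% of all tested genes, and none was called.

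Among ligand genes and their release, 5 of 23 were tested. The ligand gene Wnt4 (-0.57 ± 0.46) and Porcn, which encodes the acyltransferase that lipidates Wnt proteins (0.71 ± 0.79), had the smallest p, as log2 differences ± SE. Of 10 further receptor genes 6 were tested, led by the LRP chaperone gene Mesd (-0.35 ± 0.30) and the Wnt receptor gene Ryk (-0.69 ± 0.74). Of 16 secreted and membrane inhibitors 6 were tested, led by the secreted Frizzled-related genes Sfrp1 (-1.36 ± 0.66) and Sfrp4 (0.62 ± 0.98). Sfrp1 had 2.61, 0.0989 and 0 RPM in YH250 1, 2 and 3, and 6.52, 1.93 and 2.06 RPM in DMSO 1, 2 and 3, so YH250 1 overlapped the DMSO range. Sfrp4 was at 15.5 RPM in YH250 2, the library with the high stromal genes, and at no more than 1.12 RPM in the other YH250 libraries and 2.61 RPM in the DMSO libraries.

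Of 31 further cytoplasmic components 28 were tested, 10 with higher and 18 with lower means in YH250, led by Siah1a and the GSK3-binding gene Frat2 (-0.61 ± 0.39). Of 19 further nuclear factors 17 were tested, led by the repressor gene Hbp1 (0.57 ± 0.32) and the chromatin remodeller gene Chd8 (-0.62 ± 0.40). Of 31 further target genes 21 were tested, 10 with higher and 11 with lower means in YH250, led by Zbtb33 (-0.64 ± 0.40) and Sgk1 (-0.53 ± 0.34). Between numbers 3 and 1, 10 of the 83 were called, 6 higher and 4 lower in number 3, against 8.56% of all tested genes. The higher ones were Id2, Cd44, Tcf4, Enc1, Nedd9 and Birc5, and the lower ones Mycn, Ryk, Tle2 and Jun. Id2, an inhibitor of basic helix-loop-helix factors, had 237 and 241 RPM in YH250 3 and DMSO 3, against 34.7 and 7.98 RPM in YH250 1 and DMSO 1 (limma, adjusted p = 0.000675). Ryk, a Wnt receptor gene, had 5.25 and 6.01 RPM in YH250 3 and DMSO 3, against 27.9 and 33.5 RPM in YH250 1 and DMSO 1 (limma, adjusted p = 0.0174).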

How the data were processed

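Poly(A) RNA of the sorted cells was made into cDNA with an ultra-low-input kit and read single-end, per the labels' protocols. Tools and build listed, without roles, in the submitters' processing notes are TopHat2 2.0.8, CASAVA 1.8.2, Partek and mm10. The deposited values are a normalized signal per gene and library, with no unit stated. The lowest value in each column is 1, which was taken as an offset, and the excess over it, which lies mostly on steps of 1 read, was taken as RPM. In the YH250 libraries 61.7% to 68.5%, and in the DMSO libraries 61.0% to 66.2%, of the values up to 20 reads came within 0.1 read of a whole number, so no count model was used. The gene annotation and strand use are not given in the sources used here, so overlapping antisense genes are uncertain.

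Symbols were matched by Ensembl ID for 40254 of 41128 genes, and positions and exon lengths are from GENCODE M21 (GRCm38). Genes with a mean of 1 RPM or more (13597) were tested on log2(RPM + 1), which understates changes of low genes, with limma 3.58.1 in R 4.3.3 (trend, robust), Benjamini-Hochberg adjusted over all of them at 0.05. The scripts were tested on simulated data. Same-numbered libraries deviated together from their group means (correlations 0.55, 0.26 and 0.70 for numbers 1, 2 and 3), so the number was taken as a pairing and a fit with it as a block is given where it changes a result. What the numbers mark is not given in the labels. Contrasts between numbers used that fit. Alternatives were other pseudocounts, minima, scalings and weights, and libraries left out. All 45 genes are accounted for, and of each further pathway list the 2 genes of smallest p and any called are named. The genes and lists were chosen with earlier results of these data known.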

Additional observations from a re-analysis of the deposited data

How the results depend on the processing

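None of the 27 genes, and none of the other pathway genes, was called between YH250 and DMSO under any of the 18 alternatives. The number of the 27 with an unadjusted p under 0.05 was 1 with array weights, 1 with the replicate block and 1 without both libraries numbered 2, each time Fzd4, and 0 to 1 without a single library (Dvl1 without YH250 1, Fzd4 without YH250 2, Znrf3 without YH250 3). Calls between numbers 3 and 1 numbered 1 with a pseudocount of 0.25, 0 with no minimum mean, 0 after rescaling to equal gene totals, 0 without trend and robust, 5 with array weights, and 0 to 7 without a single library (0 without DMSO 1 or DMSO 3, 7 without YH250 2, 6 without DMSO 2). Calls between numbers 3 and 2 numbered 0 with no minimum mean, 0 without trend and robust, and 0 to 6 without a single library (0 without DMSO 3, 6 without DMSO 2). Those between numbers 2 and 1 numbered 0 to 4 (4 without DMSO 2). These single-library checks of the numbers were added after the data had been seen, leave 1 number with 1 library that is assumed to vary like the rest, and their cause was not tested. The sign of the treatment difference held under every alternative for 8 of the 27 genes and turned in 54 of 479 gene results, none of them called, and the cause was not tested. Log2 differences that turned were -0.049 for Tcf7 (pseudocount of 5), -0.033 for Gsk3b (quantile normalization), -0.065 for Lrp5, -0.026 for Dvl3, -0.032 for Apc and -0.072 for Gsk3b (rescaling), and -0.10 for Dvl3 and 0.19 for Ets2 (array weights). Without both libraries numbered 1 they were 0.28 for Fzd8, -0.013 for Axin1, -0.10 for Apc, -0.41 for Lef1 and -0.75 for Tcf7. Without both numbered 2 they were -0.27 for Fzd3, -0.10 for Fzd5, 0.11 for Fzd7, -0.043 for Lrp5, 0.18 for Dvl2, -0.19 for Dvl3, -0.19 for Gsk3b, 0.034 for Pygo2, 0.0054 for Ephb2 and 0.20 for Ets2. Without both numbered 3 they were -0.084 for Dvl3 and -0.031 for Tcf7. Without a single library the differences that turned ranged from -0.35 to 0.38 for Fzd7, -0.60 to 0.41 for Fzd8, -0.071 to 0.067 for Lrp5, -0.29 to 0.30 for Dvl2, -0.097 to 0.30 for Dvl3, -0.21 to 0.31 for Apc, -0.25 to 0.13 for Gsk3a, -0.13 to 0.15 for Gsk3b, -0.57 to 1.04 for Lef1, -1.02 to 0.84 for Tcf7, -0.36 to 0.040 for Bcl9, -0.71 to 0.029 for Bcl9l, -0.17 to 0.036 for Pygo2, -0.64 to 0.024 for Ephb2, -0.53 to 0.12 for Sox4 and -0.32 to 0.26 for Ets2. At 1 read per 0.0321 to 0.0455 RPM, the 18 genes with means below 1 RPM were tested in the fit with no minimum mean alone, where none was called between treatments.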
